A study of Ovis aries with 6 samples.

Results

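Of 18000 annotated sheep genes counted in oocytes, 34 were at least 4 times higher at metaphase II (MII) than at the germinal vesicle (GV) stage and reached at least 5 CPM (a count as a share of its library's total, scaled to 1000000 counts) in MII. Members were Ensembl sheep genes with an identifier number under 25000 that met both limits on the mean CPM of the 3 libraries of each stage. The genes were thus selected on the MII and GV values themselves, and their levels and ratios are a description. Of the 34, 4 had 3 or fewer counts in each GV library and are called near absent in GV, and 30 were already present there. The whole table held 25609 features.

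GV oocytes still have their nucleus and wait in the prophase of meiosis I, while MII oocytes have extruded the first polar body. All 6 libraries came from Xinjiang Sheep, each from a pool of 30 to 35 oocytes taken from follicles of 2 to 8 mm, with 3 libraries per stage. The GV pools were oocytes that had no cumulus at collection, and the MII pools were oocytes from cumulus-oocyte complexes that were stripped with hyaluronidase and matured in vitro for 23 to 25 h at 38.5 °C in 5% CO2, where the labels leave unclear whether the cumulus came off before or after the culture. The kind of oocyte collected, the culture and the stage changed together and cannot be told apart, and the animals behind each pool are not named in the labels. The p-values therefore rest on the spread between pools only, which may be technical.

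A fully grown oocyte makes little new RNA once its chromatin has condensed, and maturation runs largely on RNA stored during growth. Many stored RNAs are broken down as meiosis resumes, while others are held back and translated when their poly(A) tails are lengthened. A level given as a share of counts is relative: an RNA that stays constant takes a larger share when others are lost. In these bulk libraries a change in the number of oocytes that carry an RNA and a change in the amount per oocyte cannot be told apart.

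The deposited files do not pair identifiers with gene names. The reference table used here carried 0 Ensembl identifiers, so none of the 18914 Ensembl identifiers could be matched. The functions of the 34 genes, and markers of oocyte or cumulus cells, were therefore not analysed here. The genes are numbered 1 to 34 from the highest to the lowest mean CPM in MII, and the identifier is given for the highest gene of each class.

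Libraries held 26984892 to 28117286 counts in GV and 28578411 to 31962405 in MII. The choice of scaling moved the number of genes that met the limits. The trimmed mean of M-values (TMM), which scales libraries so that most features keep their level, gave factors of 1.16 to 1.17 in GV and 0.769 to 0.910 in MII. With TMM-scaled totals 127 annotated genes met both limits, the 34 among them and 93 more.

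Strong increases of this size were rare, and 4-fold decreases were more frequent. Among 7028 annotated genes with at least 5 CPM in MII, the 34 made up 0.484%. In the other direction, 638 of 7669 annotated genes with at least 5 CPM in GV (8.32%) were at least 4 times lower in MII. With TMM scaling the corresponding counts were 127 of 7316 (1.74%) and 362 of 7317 (4.95%), so decreases were more frequent under both scalings. Assembled loci, whose identifiers are those StringTie gives to transcripts it builds from reads, passed the same 2 limits in 5 of 2297 cases (0.218%), and late-numbered Ensembl genes in 0 of 71. Differences between these classes were not tested.

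**Figure D1:**
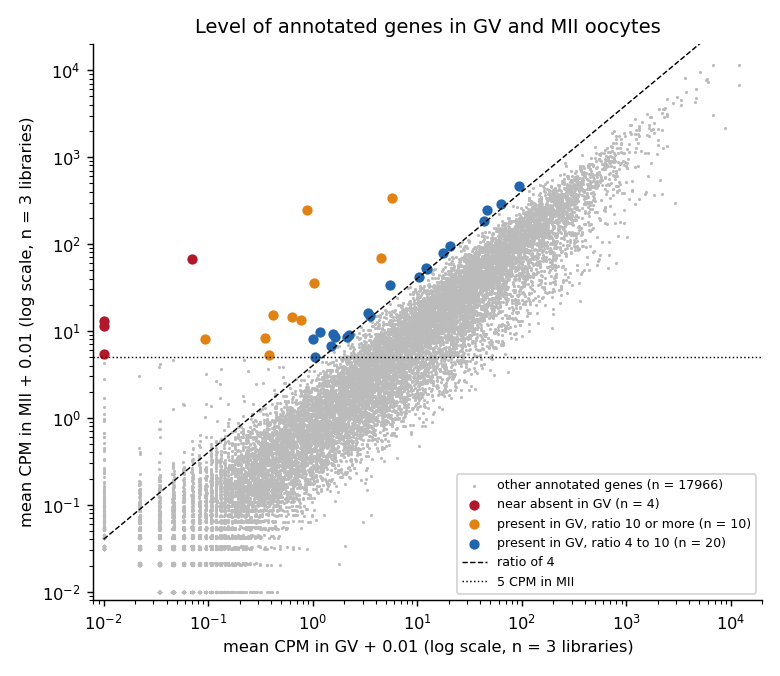
Mean CPM in MII (vertical axis, log scale) against mean CPM in GV (horizontal axis, log scale) for 18000 annotated genes, each axis with 0.01 CPM added so that genes at 0 can be drawn; dashed and dotted lines mark the ratio of 4 and the level of 5 CPM. Colored points are the 34 genes: 20 lie close above the dashed line with ratios of 4.01 to 8.27, and 14 lie farther to the left.

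The limits did not fall in a gap. The 3 genes just over the ratio limit had ratios of 4.01, 4.06 and 4.09, and the 3 just under it 3.83, 3.87 and 3.91. A further 73 annotated genes at 5 CPM or more had ratios of 3 to 4. At the level limit, the lowest members had 5.04, 5.26 and 5.46 CPM in MII, and the genes just outside had 4.23, 4.64 and 4.67 CPM, of which 2 were near absent in GV. There were 24 annotated genes with a ratio of at least 4 and 2 to 5 CPM in MII.

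Together the 34 genes took a small share of either library type. They held 0.0316%, 0.0372% and 0.0393% of all counts at the GV stage. At MII they held 0.257%, 0.202% and 0.286%. The share did not overlap between stages, with means of 0.0361 ± 0.00397% at the GV stage and 0.249 ± 0.0427% at MII (SD, n = 3). The ratio limit fixed a higher mean share at MII for these genes, so nothing is read from this separation. The 5 genes highest in MII made up 73.9%, 53.5% and 62.0% of the MII counts of all 34. The median level of the 34 in MII was 14.9 CPM. At MII, 12 genes had at least 50 CPM and 19 had less than 20 CPM.

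Summed over the 4 genes near absent in GV, the GV libraries held 0, 2 and 3 counts. The same sum was 2858, 2785 and 3325 counts at MII. The sums were alike across the MII libraries, while the genes behind them were not. The highest, ENSOARG00000014971 (gene 10), supplied all 5 GV counts of this class, and 2202, 1339 and 2682 of the MII counts. Its level was 0, 0.0738 and 0.107 CPM in GV and 77.1, 42.8 and 83.9 CPM in MII, so no GV library came near an MII library. The ratio of its pooled count shares was 1114, with an exact 95% counting interval of 477 to 3433, and the ratio of its means without GV library 3 was 1841. Such intervals, and the floors used here, describe counting error alone, since sequenced reads can be copies of 1 molecule.

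The other 3 near-absent genes had 0 counts in every GV library. Gene 22 had 325, 269 and 453 counts in MII, an even level of 11.4, 8.60 and 14.2 CPM. Taking 3 counts over the GV group as the floor, it was at least 312-fold higher in MII, and at least 206-fold without GV library 3, because the floor is then set over fewer GV counts. Gene 32 had 295, 21 and 172 counts in MII, or 10.3, 0.671 and 5.38 CPM, so MII library 2 was 15.4 times below library 1. On the same floor it was at least 146-fold higher, and at least 83.6-fold higher without MII library 1, where its MII mean was 3.03 CPM and under the level limit. Gene 21 had 36, 1156 and 18 counts in MII, or 1.26, 36.9 and 0.563 CPM. Its MII mean rested on library 2, and it had a mean of 0.911 CPM without that library, under the level limit.

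Among the genes present in GV, 10 were at least 10 times higher in MII, with ratios of 14.1 to 280 and a median of 29.2. Their GV means were 0.0834 to 5.75 CPM. Gene 4 had the largest ratio of this group, with 0.964, 0.959 and 0.711 CPM in GV and 190, 114 and 434 CPM in MII. Its GV libraries were nearly equal, on 20 to 26 counts each, and its MII libraries spanned 3.81 times. The ratio of pooled count shares was 284, with an exact 95% counting interval of 226 to 364, and the ratio of its means without MII library 3 was 173.

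Gene 2 was second in MII level of all 34 and was counted at least 120 times in every GV library. Its counts were 153, 120 and 201 at the GV stage and 11928, 5026 and 14202 at MII, or 5.67, 4.43 and 7.15 CPM against 417, 161 and 444 CPM. MII library 2 was the lowest, and even it was 22.5 times the highest GV library. The mean ratio was 59.3. Gene 17 was the most even of this group in MII, with 18.9, 13.4 and 13.3 CPM there and 0.593, 0.406 and 0.213 CPM in GV, a ratio of 37.6.

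Other genes of this group were uneven between MII pools. Gene 14 had 12.5, 7.89 and 85.3 CPM in MII against 1.001, 1.03 and 1.03 CPM in GV, so its GV libraries were nearly identical while MII library 3 stood 10.8 times above library 2. Gene 29, with 0, 1 and 6 counts in GV, missed the definition of near absent by 1 library. It had 7.45, 4.602 and 12.2 CPM in MII and a pooled ratio of 95.7 (exact 95% counting interval 46.2 to 239), and without GV library 3 the ratio of its means was 439. Gene 28 had 10.9, 4.44 and 9.23 CPM in MII and a ratio of 24.0, or 37.7 without GV library 2. Gene 33 had 2.76, 3.20 and 9.82 CPM in MII and a ratio of 14.1, so MII library 3 alone brought it over the level limit. Without that library it had 2.98 CPM in MII and a ratio of 7.97, and without GV library 3 a ratio of 21.9.

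The remaining 3 genes of this group were uneven in GV, with library 1 high. Gene 9 was counted 311, 27 and 26 times at the GV stage and 778, 1118 and 4543 times at MII. Gene 20 went from 57, 4 and 1 counts to 136, 155 and 957. Gene 19 went from 46, 1 and 4 counts to 0, 1344 and 0. Genes 9 and 20 were highest in MII library 3, while gene 19 was counted in only 1 MII library and its stages overlapped. In all, 14 features of the table had at least 40 counts in GV library 1 and at least 5 times the CPM of both other GV libraries, and 3 of them were these genes. The same rule found 6 features in GV library 2 and 6 in GV library 3, none of them a member.

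The largest group, 20 genes, was present in GV and 4 to 10 times higher in MII, 14 of them under 5-fold. These genes ranged from 5.04 to 470 CPM in MII and from 0.996 to 94.4 CPM in GV. ENSOARG00000021831 (gene 1) was the highest of all 34 in MII. Its GV counts were 1699, 2963 and 3120 and its MII counts 19848, 10405 and 12269, or 63.0, 109 and 111 CPM against 695, 333 and 384 CPM. GV library 1 was the lowest in GV and MII library 1 the highest in MII, and the lowest MII library was 3.00 times the highest GV library. The GV mean was 94.4 ± 27.2 CPM and the MII mean 470 ± 196 CPM (SD, n = 3), a ratio of 4.98.

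Genes 1 and 5 ran in step across the MII libraries and less closely across the GV libraries. Gene 5 had 28.2, 60.4 and 51.0 CPM in GV and 362, 170 and 201 CPM in MII. The count of gene 1 over that of gene 5 was 1.92, 1.95 and 1.91 in the MII libraries and 2.23, 1.81 and 2.17 in the GV libraries. The ratio was thus steadier between MII libraries than either gene's own level, which differed 2.09 times (gene 1) and 2.12 times (gene 5) between the highest and the lowest. Over the 6 libraries, gene 5 was also the feature most like gene 1 among 10866 features with a mean of at least 100 MII counts, by Pearson correlation of log2(CPM + 0.5) (r = 0.998) and by root mean square distance of centered values (0.10). Genes that share reads with a near-identical copy would be uncertain, and whether these are such copies was not tested, since no sequence could be matched to the identifiers.

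Of the next genes of the group by MII level, 3 were fairly even between pools and 1 was not. Gene 3 had 59.6, 62.9 and 68.7 CPM in GV and 236, 305 and 314 CPM in MII, the narrowest MII range of the 34 (1.33 times). Gene 6 had 53.0, 32.7 and 44.7 CPM in GV and 152, 187 and 215 CPM in MII. Gene 7 had 20.5, 21.2 and 19.8 CPM in GV and 73.9, 117 and 95.05 CPM in MII. Gene 8 had 13.7, 17.5 and 21.6 CPM in GV and 47.4, 111 and 80.5 CPM in MII, a range of 2.33 times at MII. In each of these 4 genes MII library 1 was the lowest MII library, in contrast to genes 1 and 5, where it was the highest.

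The other members of this group were genes 11 to 13, 15, 16, 18, 23 to 27, 30, 31 and 34. Gene 15 had the highest MII level of those above 6-fold, with 5.30, 4.17 and 6.94 CPM in GV and 20.02, 32.8 and 49.3 CPM in MII. Gene 13 was the member nearest the ratio limit, with 12.04, 10.4 and 8.71 CPM in GV and 35.8, 60.3 and 29.0 CPM in MII. Gene 23 had the largest ratio of the group, 8.27, with 0.778, 1.29 and 1.42 CPM in GV and 11.3, 11.5 and 6.07 CPM in MII. For all 3, every MII library lay above every GV library.

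**Figure D2:**
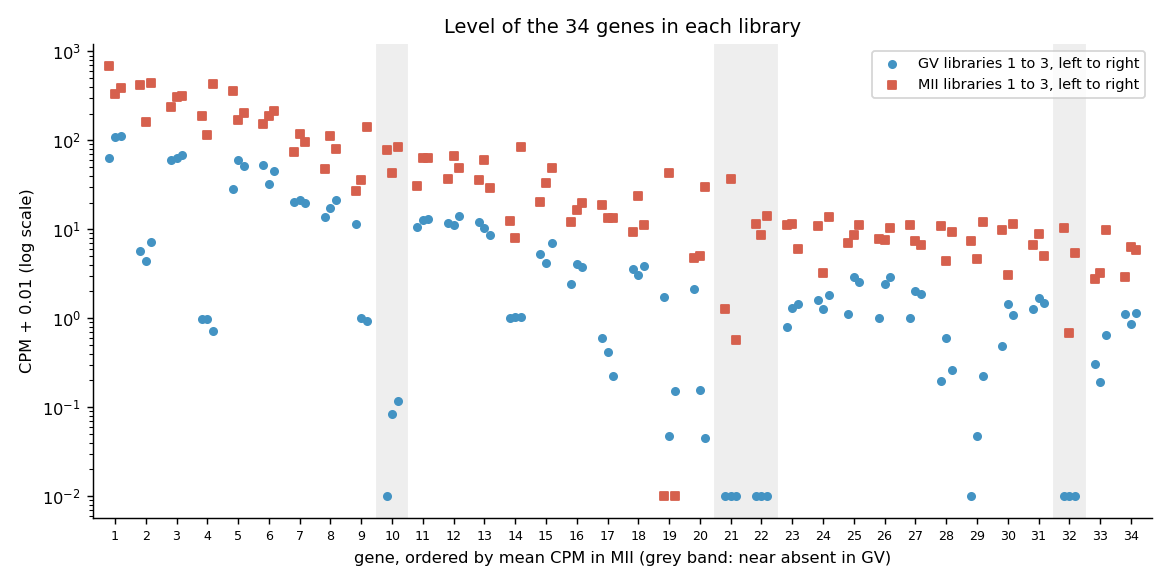
CPM with 0.01 added (vertical axis, log scale) of each of the 34 genes in the 3 GV libraries (circles) and 3 MII libraries (squares), genes ordered along the horizontal axis by mean CPM in MII; grey bands mark the 4 genes near absent in GV. Squares lie above circles for 33 genes, and gene 19 has 2 MII libraries at 0.

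The stages did not overlap for 33 of the 34 genes, and gene 19 was the exception. All 3 MII values lay above all 3 GV values for 33.8% of annotated genes at 5 CPM or more in MII. In edgeR's quasi-likelihood test over 19302 features, 33 of the 34 genes passed the filter on low counts, and gene 19 did not. Of these 33, 32 had a Benjamini-Hochberg adjusted p under 0.05, where 24.7% of all tested features were called higher in MII. The rule used the same contrast, so nothing is read from either count.

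The fitted log2 fold changes of these 33 genes had a median of 3.06 with TMM scaling, beside −0.01 over all tested features, and of 2.57 with column totals alone, beside −0.45. The ratio limit fixed a high median for the members, so nothing is read from its distance to that of all features. Gene 1, ENSOARG00000021831, differed by 2.75 ± 0.31 on the log2 scale (SE; edgeR, adjusted p = 0.000139), and ENSOARG00000014971 (gene 10) had an edgeR adjusted p of 1.18e-05. Gene 21 was tested and not called (edgeR adjusted p = 0.0532). The limits that chose these genes use the same contrast, so nothing is read from single-gene p-values, here or in the next paragraph. Over the 14 settings run, including this fit, 29 genes kept their call wherever they were tested. How many of all tested features did so was not counted. By setting, 2332 (column totals alone) to 5092 (DESeq2) of 19302 features were called higher. The rule used the same contrast, so nothing is read from the 29. Gene 21 was called in 7 of 13 settings that gave it an adjusted p, and gene 19 in 0 of 5.

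Genes 9 and 20 lost their calls in 4 settings each, while their fold changes stayed about as large. Gene 9 had a log2 fold change of 4.46 (edgeR adjusted p = 0.0280), which was 3.98 without GV replicate 2 (edgeR adjusted p = 0.127) and 3.97 without GV replicate 3 (edgeR adjusted p = 0.110). Gene 20 had a log2 fold change of 4.65 (edgeR adjusted p = 0.0264), which was 4.16 without GV replicate 2 (edgeR adjusted p = 0.125) and 4.08 without GV replicate 3 (edgeR adjusted p = 0.0877). With all libraries kept, the replicate block gave 4.97 for gene 9 (edgeR adjusted p = 0.139) and 4.75 for gene 20 (edgeR adjusted p = 0.175). Omitting the low-count filter gave 4.46 (edgeR adjusted p = 0.0974) and 4.65 (edgeR adjusted p = 0.105). Gene 32 lost its call in 1 setting, without the low-count filter (edgeR adjusted p = 0.0672).

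The median spread between MII pools was higher among the 34 genes than among other annotated genes in the same range of MII level. The 2 sets were not matched on level within that range, and their quartiles overlapped. The SD of log2(CPM + 0.5) over the 3 MII libraries had a median of 0.58 among the 34 (quartiles 0.37 and 0.95) and of 0.29 among 6677 other annotated genes of 5 to 470 CPM in MII (quartiles 0.18 and 0.43). In GV the medians were 0.31 and 0.14, where many of the 34 have few counts. A rule that asks for a high mean over 3 libraries also favors genes with 1 high library, so the difference was not tested. The highest MII library was more than 2 times the lowest, or the lowest was at 0, for 21 of the 34 genes. It was more than 5 times the lowest, or the lowest was at 0, for 6 genes, all of them near absent in GV or at least 10-fold higher in MII.

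Genes of small and large ratio were ordered differently across the MII pools. Of the 20 genes at 4 to 10-fold, 11 were lowest in MII library 1, 5 in library 2 and 4 in library 3. Of the 14 that were near absent or at least 10-fold higher, 3 were lowest in library 1, 8 in library 2 and 2 in library 3, and 1 was tied at 0. MII library 3 was the highest for 9 of these 14 genes and for 8 of the 20. Of the 7028 annotated genes at 5 CPM or more, 29.8% were lowest in library 1, 23.0% in library 2 and 47.2% in library 3. With TMM-scaled totals these shares were 42.0%, 31.7% and 26.3%. On that scaling, 11, 6 and 3 of the 20 genes were lowest in libraries 1, 2 and 3. The difference between the groups of genes was not tested, since genes of one library are not replicates.

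MII library 3 was the highest library for 17 of the 34 genes, and for 17.7% of the 7028 annotated genes at 5 CPM or more in MII. Part of that contrast moved with the scaling. With TMM-scaled totals, library 3 was the highest for 19 of the 34 (55.9%) and for 37.3% of the same annotated genes, and library 3 had the lowest TMM factor (0.769). The orders within the 14 genes of large ratio changed little, with 9 lowest in library 2 and 9 highest in library 3.

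**Figure D3:**
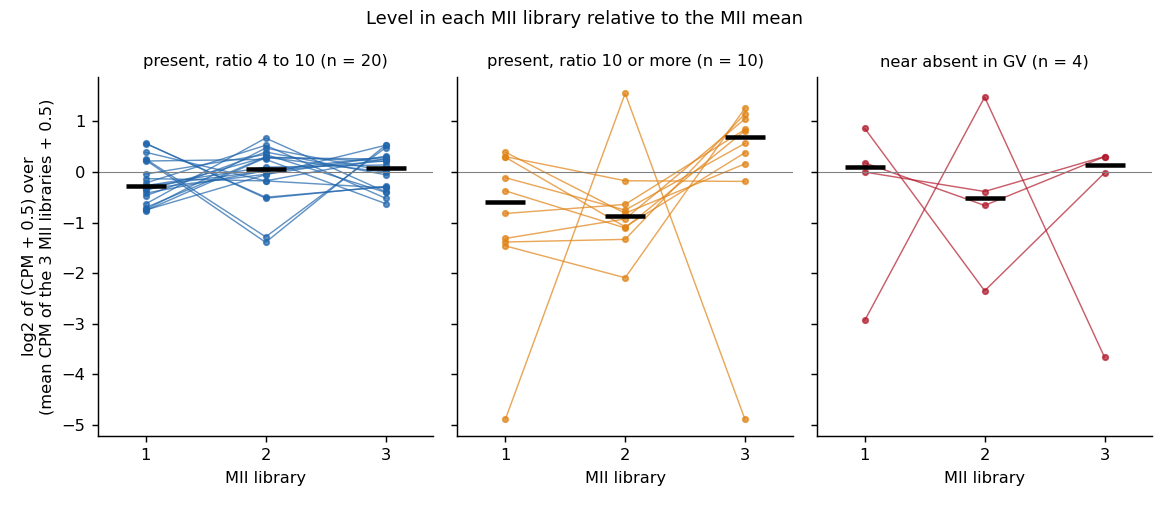
Log2 of CPM (0.5 added) in each MII library over the mean of the 3 MII libraries (0.5 added), for the 20 genes at 4 to 10-fold, the 10 genes at 10-fold or more and the 4 genes near absent in GV. Lines join the values of 1 gene, and black bars are medians over genes. MII library 2 is the lowest for 8 of the 14 genes in the middle and right panels, and gene 19 and gene 21 stand out with library 2 high.

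Genes 19 and 21 were counted mostly in MII library 2, and genes 14 and 20 in MII library 3. The rule used above for GV (40 counts or more and 5 times the CPM of both other libraries of the stage) found 43 features in MII library 2, 2 of them genes 19 and 21. It found 35 in MII library 3, 2 of them genes 14 and 20, and 5 in MII library 1, with no member among them.

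The ratio, or its lower bound, moved by over 1.5 times without 1 library for 12 of the 34 genes. Without MII library 3 the mean ratio was 7.02 for gene 9, 9.98 for gene 14 and 6.35 for gene 20, and gene 20 then had 4.86 CPM in MII. Without MII library 2, gene 19 was at 0 in MII and the bound of gene 21 was 24.4. Without GV library 1 the ratios of genes 9, 19 and 20 were larger, at 71.2, 160 and 144. The bounds of genes 21 and 32 were 238 and 95.8 without GV library 3, and the bound of gene 21 was 546 without MII library 3. Without GV library 3 the bounds of genes 21, 22 and 32 all moved by 1.52 times. These genes had 0 GV counts, so that move comes from the floor alone, and gene 22 is among the 12 only through it. The values of the other 6 genes are given beside their levels. No gene of the 4 to 10-fold group was among the 12, but 12 of its 20 genes missed a limit without at least 1 library.

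The set itself also changed with the libraries. Without MII replicate 2, 30 annotated genes met the limits, 25 of them among the 34. Without MII replicate 1, 55 met them, 31 of them among the 34. Leaving out any other library gave 32 to 42 genes. Of the 34, 17 met the limits whichever of the 6 libraries was left out, 2 of them near absent in GV.

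To read the difference in libraries that had no part in the choice, the limits were applied to 2 GV and 2 MII libraries, and the chosen genes were then read in the remaining GV and MII library, for each of the 9 possible pairs. The 9 readings share libraries and are given as a range, with no test. Of 30 to 68 genes chosen, 28.1% to 74.2% were again at least 4 times higher in the left-out MII than in the left-out GV library (median 60.0%). A ratio of at least 2 was reached by 73.7% to 96.9%. The same share over annotated genes with at least 5 CPM in the other MII libraries was 4.32% to 17.4%. Summed over pairs, 192 of 388 readings (49.5%) reached 4-fold. Over all annotated genes with at least 5 CPM in the other MII libraries, 551 of 63147 readings (0.873%) did. Both sums count the same genes and libraries repeatedly, and the second set was not selected for a stage difference, so the gap was not tested. Every library had a part in choosing the members, so these sums are no independent replication of them. In 25 of the 388 readings the left-out MII library was not higher. Over annotated genes with at least 5 CPM in the other MII libraries, it was higher for 46.2% to 57.4% per pair.

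Recovery was lowest when MII library 1 was left out. The 3 pairs without it recovered 28.1%, 43.8% and 29.4% at 4-fold, from 57, 48 and 68 genes chosen. The 3 pairs without MII library 2 recovered 63.2% to 74.2%, and the 3 without MII library 3 recovered 47.7% to 70.0%. The value in the left-out pair of libraries is a single measurement of each gene, with no replicate.

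**Figure D4:**
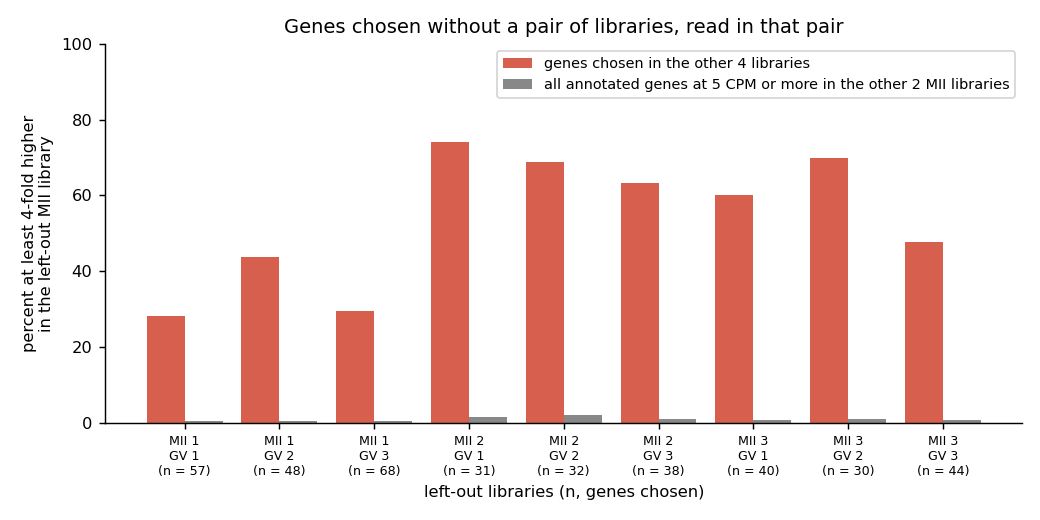
Percent of genes that were at least 4 times higher in a left-out MII library than in a left-out GV library (vertical axis), for each of the 9 left-out pairs (horizontal axis). Red bars are genes chosen in the other 4 libraries, from 28.1% to 74.2%, and grey bars are all annotated genes at 5 CPM or more in the other 2 MII libraries, from 0.327% to 2.08%.

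The pattern most like that of ENSOARG00000014971 over the 6 libraries, by Pearson correlation of log2(CPM + 0.5) among 10866 features, was that of gene 22 (r = 0.999), which is also near absent in GV. The next 2 features by correlation were no members, with ratios of only 1.73 and 1.81, since a correlation over 6 libraries ignores the size of the change. By root mean square distance of centered log2(CPM + 0.5), the nearest were gene 4 (0.42), gene 2 (0.66) and gene 22 (1.18). That distance counts the size of a change only after 0.5 CPM is added. All GV levels of ENSOARG00000014971 and gene 22 lay below 0.5 CPM, which compresses their changes. The order of these distances is therefore not an order of likeness in fold change. For ENSOARG00000021831 the nearest by distance were gene 5, gene 27 (0.19) and gene 23 (0.40). These are descriptions over 6 libraries in 2 stages and carry no p-value.

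Reads counted for an assembled locus as well as for a member were looked for by count. Of the 28 genes with at least 100 counts in every MII library, 0 had an assembled locus within 1% of their count in all 3 MII libraries. There were 11 with at least 1 locus within 10%, and 0 of those loci were also within 10% in the GV libraries. How often other genes have a locus within 10% was not measured. A locus that shares only part of a member's reads would have a different count, so these numbers cannot show whether reads are shared in part.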

How the data were processed

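Counts per feature in 6 libraries were used as deposited by the authors, whole numbers without normalization. Per the labels' protocols, ribosomal RNA was removed from 3 µg of RNA, libraries were strand-specific, and reads were paired and 100 bp long. The submitters' processing notes name the build Oar_v3.1 and the tools featureCounts 1.6.4, STAR 2.7.1a, Trimmomatic 0.38, DESeq2 and StringTie 2.0. Any amplification of the RNA and the strand setting of the counting are not stated in those notes or the labels; both can move relative counts, and overlapping, antisense or near-identical genes may share reads.

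Members were chosen on CPM over column totals. The members and lists were chosen with earlier results of these data known. Identifiers were looked up among 35057 genes of ARS-UI_Ramb_v3.0, of which 0 carried an Ensembl identifier, so gene lists, cell type markers and sequences were not used here. Stages were compared with edgeR 4.0.16 (R 4.3.3) over all features passing filterByExpr, with TMM scaling, a robust quasi-likelihood F-test and Benjamini-Hochberg adjustment. The SE of a log2 fold change was approximated as the absolute log2 fold change divided by the root of F. The test was checked on simulated counts with 200 changed features. Without names, the rule named the member of highest MII level in each class. Alternatives were 3 scalings, no filter, DESeq2 1.42.0, limma-voom (limma 3.58.1), leaving out single libraries and a replicate block.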

Additional observations from a re-analysis of the deposited data

How the results depend on the processing

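The number of genes meeting the limits depended on the level and ratio limits and on the scaling. It was 127 (121 present in GV) with TMM-scaled totals, 143 (137 present) with DESeq2 size factors, 58 (11 near absent, 47 present) at 2 CPM, 22 (19 present) at 10 CPM, 107 (103 present) at 3-fold and 16 (12 present) at 8-fold, where stricter or looser limits act by construction and the cause of the effect of scaling was not tested. Leaving out each library gave 30 to 55 genes, 3 to 6 of them near absent and 24 to 52 present. Other settings called 29 to 33 of the 32 to 34 members tested higher in MII, and the members' median log2 fold change stayed between 2.57 and 3.25. Over all features, the number called higher ran from 2332 of 19302 with column totals alone to 5092 of 19302 with DESeq2. The rule used the same contrast, so nothing is read from the members' calls or median. Both genes named by identifier kept sign and call in all 13 alternatives. The replicate block called 31 of 33 genes, with a median of 2.83; same-numbered libraries did not deviate together (correlations −0.0892, −0.230 and −0.0304). The members' mean share of GV counts was 0.0435% of annotated counts and 0.0406% without the 20 most abundant features. Recovery in left-out libraries had a median of 86.8% at 2-fold and 63.0% (14.2% to 78.2%) with TMM-scaled totals. At 2-fold, the median share over annotated genes with at least 5 CPM in the other MII libraries was 10.3%. Over pairs without MII library 1, an alternative chosen after seeing the data, median recovery at 4-fold was 29.4%. The TMM-scaled library order and the calls without genes 19 and 21 (32 of 32) were also chosen after seeing the data. Gene 19 was untested and gene 21 was the only tested gene not called, so the 32 of 32 was fixed in advance. At 5 CPM a gene has 135 to 160 counts per library, while the near-absent class rests on 3 counts or fewer.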

Other observations

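The closest 2 of the 34 identifier numbers were 104 apart. Within 20 numbers, 0 of 34 genes had another member, and 1027 of 18000 annotated genes had a member that close. Within 100 numbers the counts were 0 of 34 and 4883 of 18000 (27.1%). The smallest gap gives 0 at both distances, and 100 lies just under it, so nothing is read from either contrast. Neither difference was tested. The numbers carry no positions here.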
